A study of Mus musculus with 18 samples.

Results

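Low laminar shear was compared with static culture in wild-type (WT) mouse cells, with 3 libraries at 2 dyn/cm2 and 3 static libraries, which make up 6 of the 18 libraries of the series. All expressed genes were members: of 21647 genes listed, 13058 passed the filter on low counts and were tested. Poly(A) RNA was measured in cultured cells that the labels name mouse embryonic aortic endothelial cells, either WT or homozygous for orpk, the Tg737 insertion in the cilium gene Ift88. The cells were grown to confluence in gelatin-coated channel slides, starved of serum for 24 h, and then sheared at 2 or 30 dyn/cm2 for 48 h or kept static. The groups used were WT cells at 2 dyn/cm2 and static WT cells, and, to show where the response differed, WT cells at 30 dyn/cm2, orpk cells at 2 dyn/cm2 and static orpk cells, with 3 libraries each. Sheared and static cells thus shared the genotype and the serum starvation. How long static cells were kept, and whether medium supply or oxygen differed between flowing and static slides, is not given in the sources used here. The labels tie no library to an animal, an isolation or a culture of its own, so each p-value rests on the scatter among libraries of a group, and that scatter may be technical.

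Endothelial cells line blood vessels and sense the drag of flow through ion channels, junction proteins, integrins and the primary cilium, and steady laminar flow is known for raising the transcription factors KLF2 and KLF4 and the nitric oxide synthase NOS3 in them. Hypoxia-inducible factor (HIF) pairs an oxygen-labile alpha subunit with ARNT, binds an ACGTG core and activates genes of glycolysis, of mitochondrial clearance and of vessel growth. Prolyl hydroxylases use oxygen to mark the alpha subunit for VHL, which has it degraded. SREBP factors activate sterol and fatty acid synthesis, and PPAR factors activate the import and burning of fat.

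The compared libraries held 13626480 to 16696835 counts. Levels are CPM (counts scaled to a common library size, with TMM factors), a log2 fold change is that of 2 dyn/cm2 over static with its standard error after ±, and each adjusted p comes from edgeR's quasi-likelihood test and is corrected over all tested genes by the method of Benjamini and Hochberg. At a threshold of 0.05, 4254 genes rose (32.6% of those tested) and 3960 fell (30.3%), and the libraries of the groups did not overlap for 64.3% of genes. These shares are the background for every count below. The genes named for the largest changes were required to have no overlap, so remarks on their separation add no evidence. The changes were mostly small: the median size of the log2 fold change was 0.28 over all genes, and 317 genes rose (2.43%) and 524 fell (4.01%) by more than 1. With library totals as the scaling, 5630 genes rose and 2916 fell, which makes 65.88% of the calls rises in place of 51.79%, and the median log2 fold change of all genes was 0.12 in place of 0.01; small changes are to be read relative to that shift.

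Replicate 1 at 2 dyn/cm2 stood apart. In a chi-square comparison of counts, the statistic per degree of freedom was 6.36 and 7.79 for its pairs with replicates 2 and 3, while it was 1.45 for the pair of those and 1.84 to 2.44 for static pairs. Without it 4079 genes rose and 3844 fell, and 7561 of the 8214 calls (92.05%) were made again, all in the same direction. Its level deviated by more than 0.5 on the log2 scale from the other 2 replicates in 42 of 9999 genes of at least 5 CPM, with 38 of the 42 low, and long genes were lower in it. The same count was 5 and 10 for replicates 2 and 3. It was 20, 18 and 19 for static replicates 1, 2 and 3 within their own group. Genes averaging at least 5 CPM over the compared libraries were split into 10 bins of equal size by summed exon length. The median log2 fold change of low shear over static was 0.13 in the shortest bin and -0.20 in the longest, or 0.07 and -0.15 without replicate 1. In the shortest bin 45.62% of genes rose and 23.11% fell, and in the longest 17.53% rose and 58.76% fell. The part of exon length in the results for long genes was not tested.

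**Figure D1:**
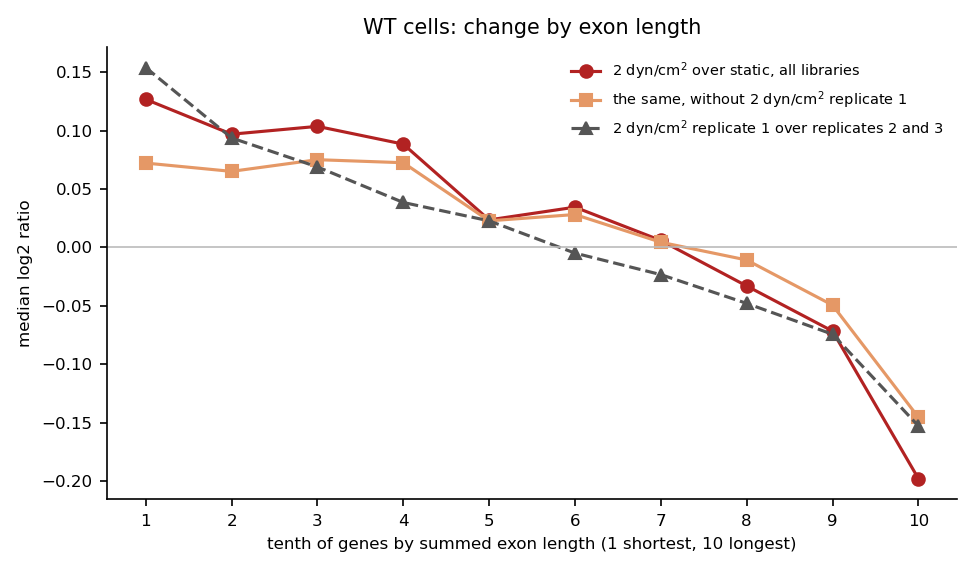
Median log2 ratio (vertical axis) in 10 bins of genes by summed exon length, shortest left, for genes of at least 5 CPM in WT cells. Red circles are 2 dyn/cm2 over static, orange squares the same without replicate 1, and grey triangles replicate 1 over the other 2 dyn/cm2 libraries; all 3 lines fall towards the longest bin, where red reaches -0.20.

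The cell type in the labels was checked against its markers. Of 39 endothelial markers, 18 had under 10 reads over the 6 libraries, and 9 had 0 reads, among them the junction cadherin Cdh5, the receptors Tie1 and Flt4 and the transcription factors Erg, Fli1 and Sox17; the VEGF receptor Kdr had 1 read. Pecam1, the endothelial adhesion molecule, averaged 0.713 ± 0.101 CPM at 2 dyn/cm2 and 1.27 ± 0.4996 CPM in static cells. Other endothelial markers were present, and 10 of the 39 averaged at least 5 CPM over the 6 libraries. Among these, Mcam, a surface adhesion molecule, had 180.3, 184 and 189 CPM at 2 dyn/cm2. Ephb4 had 195 to 232 CPM over the 6 libraries, Efnb2 124 to 207, Ets1 95.5 to 161 and Flt1 13.8 to 41.2. The summed CPM of the list was 813 to 827 at 2 dyn/cm2, against 1021 to 1134 in static cells. Kidney epithelial markers were present: the kidney cadherin Cdh16 averaged 554 ± 15.6 CPM at 2 dyn/cm2 and 666 ± 65.03 CPM in static cells, and the transcription factor Pax8 averaged 219.9 ± 4.23 CPM at 2 dyn/cm2 and 369 ± 30.5 CPM in static cells. Of the 12 genes of their list, 5 had under 10 reads, namely Umod, Slc34a1, Aqp2, Slc12a1 and Lhx1. The list summed to 1255 to 1409 CPM at 2 dyn/cm2, against 1644 to 1925 CPM in static cells, and 5 of 8 tested members fell. Fibroblast markers summed to 704 to 728 CPM at 2 dyn/cm2, against 971 to 1033 CPM in static cells, nearly all of it Col1a1, and epithelial markers to 358 to 381 against 562 to 579 CPM. Leukocyte markers summed to 49.9 to 53.5 CPM at 2 dyn/cm2, against 50.7 to 58.0 CPM in static cells. Most of that sum was Csf1r (39.4 to 46.5 CPM over the 6 libraries) and Cd14 (6.19 to 8.15 CPM). Tyrobp, Adgre1 and Cd3e had 0 reads. The absent endothelial markers and the kidney markers thus go against the endothelial label, and the cells are called WT cells below. In bulk RNA, fewer cells of a type and less RNA per cell cannot be told apart, and the part of these marker levels in any result was not tested.

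Genes that HIF activates fell together at low shear. Of 32 tested members of the hypoxia list 30 fell and 0 rose, and 25 fell by more than 1. The median log2 fold change was -1.99, against 0.01 over all genes. The summed CPM of the list was 1862, 1805 and 1841 at 2 dyn/cm2, against 7319, 7030 and 6927 in static cells, so the groups were far apart and replicate 1 stood with its own group. The list was chosen with earlier results of these libraries known, and its count describes these data rather than giving independent evidence of a direction. None of its 27 members of at least 5 CPM lies in the longest bin of genes by exon length.

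Bnip3 (ENSMUSG00000078566, chr7:138890836-138909519, minus strand, GRCm38), a receptor for mitochondrial clearance, had 11.8, 8.41 and 10.1 CPM at 2 dyn/cm2, against 217, 204 and 195 CPM in static cells (log2 fold change -4.34 ± 0.07, adjusted p = 5.33e-37). Its relative Bnip3l, with the same role, had 65.96, 59.3 and 62.6 CPM at 2 dyn/cm2, against 262, 240.4 and 237 CPM in static cells (log2 fold change -1.97 ± 0.05, adjusted p = 2.4e-32). The low-shear libraries of both lay far below every static library. Car9 (ENSMUSG00000028463, chr4:43506966-43513729, plus strand), the carbonic anhydrase of the cell surface that handles acid, had 0.272, 0.661 and 0.434 CPM at 2 dyn/cm2, against 14.3, 12.9 and 12.9 CPM in static cells (log2 fold change -4.87 ± 0.19, adjusted p = 2.24e-24). Pdk1 (ENSMUSG00000006494, chr2:71873224-71903858, plus strand), the kinase that shuts pyruvate out of the mitochondrial dehydrogenase, had 30.4, 32.6 and 31.6 CPM at 2 dyn/cm2, against 342, 347 and 326 CPM in static cells (log2 fold change -3.42 ± 0.05, adjusted p = 1.65e-39). Neither gene had overlapping libraries, and the low-shear values of Car9 were those of a few reads a library. Adm, the vasodilator peptide adrenomedullin, had 0 reads over the low-shear libraries and 28 over the static ones, which makes it at least 10.6-fold lower if the absent reads are set to a floor of 3 per group.

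Vegfa (ENSMUSG00000023951, chr17:46016993-46032369, minus strand), the main vessel growth factor, had 63.5, 64.5 and 63.8 CPM at 2 dyn/cm2, against 481, 459.7 and 486 CPM in static cells (log2 fold change -2.90 ± 0.04, adjusted p = 3.54e-41). Ndrg1, a stress-induced protein, had 166, 161 and 159.8 CPM at 2 dyn/cm2, against 923, 875 and 835 CPM in static cells (log2 fold change -2.44 ± 0.04, adjusted p = 3.07e-37). Both sat low in all 3 low-shear libraries. Collagen modification took part: the prolyl 4-hydroxylase subunits P4ha1 (-1.79) and P4ha2 (-2.62) and the lysyl hydroxylase Plod2 (-1.41) fell, as did the oxidative folding enzyme Ero1l (-2.80). So did the glycogen enzymes Gys1 (-1.84) and Gbe1 (-1.18), the histone demethylases Kdm3a (-1.43) and Kdm4b (-1.70), the mTOR inhibitor Ddit4 (-2.24), the MYC antagonist Mxi1 (-1.35), the cytokine Mif (-1.94) and the mitochondrial protein Higd1a (-2.31), where each value is the log2 fold change. The smallest falls of the list were those of Wsb1 (-0.47), a ubiquitin ligase adaptor, Pdk3 (-0.57), a relative of Pdk1, and Stc2 (-0.63), a secreted stanniocalcin. The members that did not pass were Ak4, at 2 reads in each group, and Ppp1r3c, at 3 reads at 2 dyn/cm2 and 9 in static cells, which passed without replicate 1 at 2 dyn/cm2 (adjusted p = 0.049).

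**Figure D2:**
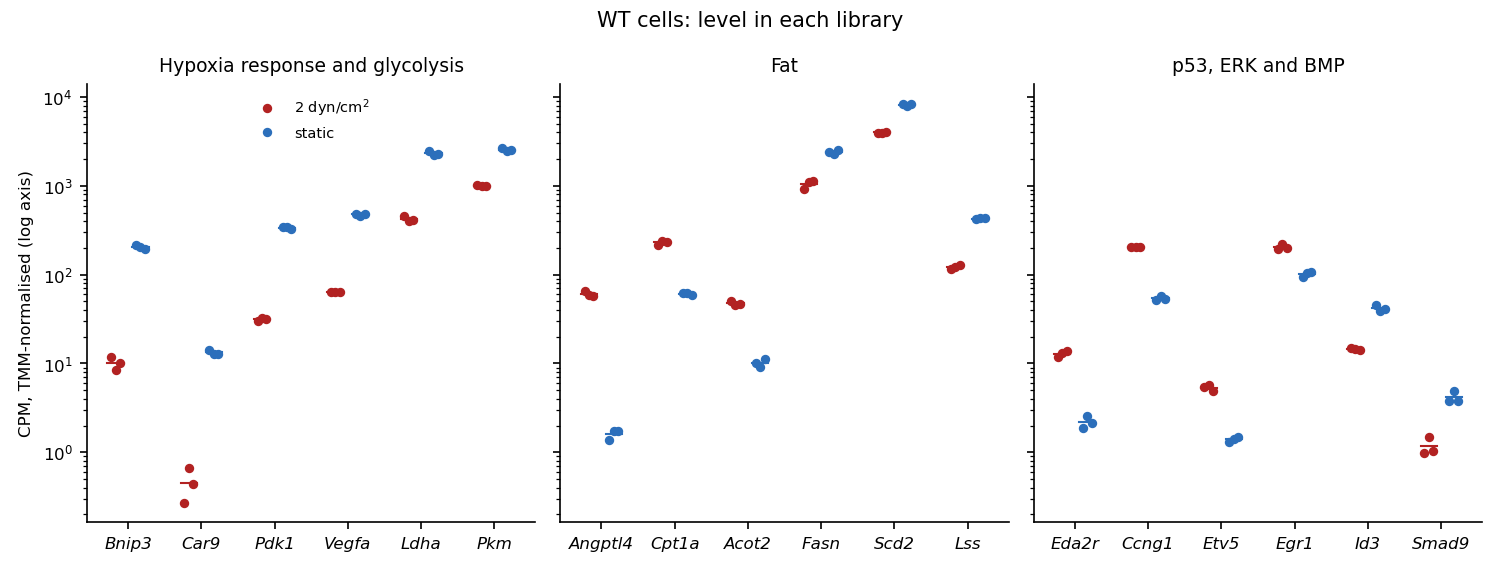
Level of 18 genes in each WT library (CPM, log axis), with a line at the mean of each group; 2 dyn/cm2 is red and left, static is blue and right. The groups of every gene shown are apart, with Bnip3, Car9 and Fasn below static at 2 dyn/cm2 and Angptl4, Cpt1a and Eda2r above it.

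The HIF pathway itself changed less and in both directions. The labile subunit Hif1a had 211, 220.3 and 215 CPM at 2 dyn/cm2, against 424, 350.1 and 388 CPM in static cells (log2 fold change -0.85 ± 0.05, adjusted p = 5.11e-15), and its VHL partner Vhl (-0.75) and the HIF-induced antagonist Cited2 (-1.09) also fell. All 3 low-shear libraries of Hif1a lay below the static ones. Of the prolyl hydroxylases, the HIF targets Egln1 (-2.61) and Egln3 (-0.90) fell while Egln2 (0.24), which is not known as one, rose, as did the asparaginyl hydroxylase Hif1an (0.25). The second alpha subunit, Epas1, had 6.303, 8.53 and 8.302 CPM at 2 dyn/cm2, against 7.38, 10.1 and 9.08 CPM in static cells, and its difference did not pass (adjusted p = 0.164), though it did without static replicate 1 (adjusted p = 0.0415). Hif1a is controlled mainly through its protein, which was not measured.

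The promoters of 4 genes with large falls are printed because the list and its motif can be seen in them. They are RefSeq windows on GRCm38.p6, 250 bases before to 50 after the gene start, read 5′ to 3′ on the gene's strand, with each ACGTG or its reverse CACGT in capitals; a CACGTG holds both. The windows are chr7:138909457-138909756 (minus strand) for Bnip3, chr4:43506776-43507075 (plus) for Car9, chr11:78322823-78323122 (plus) for Aldoc and chr7:46845554-46845853 (plus) for Ldha.
Bnip3: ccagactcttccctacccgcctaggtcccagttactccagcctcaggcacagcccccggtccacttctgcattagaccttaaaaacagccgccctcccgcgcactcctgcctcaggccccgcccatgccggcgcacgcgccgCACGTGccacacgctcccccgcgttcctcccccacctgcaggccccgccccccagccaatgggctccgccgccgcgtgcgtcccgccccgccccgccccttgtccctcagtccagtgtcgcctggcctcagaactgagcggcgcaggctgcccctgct
Car9: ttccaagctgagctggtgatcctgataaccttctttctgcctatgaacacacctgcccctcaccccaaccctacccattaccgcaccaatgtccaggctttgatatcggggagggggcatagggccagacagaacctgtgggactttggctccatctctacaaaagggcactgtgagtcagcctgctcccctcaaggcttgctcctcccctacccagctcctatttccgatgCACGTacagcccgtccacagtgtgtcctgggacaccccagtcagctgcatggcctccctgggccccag
Aldoc: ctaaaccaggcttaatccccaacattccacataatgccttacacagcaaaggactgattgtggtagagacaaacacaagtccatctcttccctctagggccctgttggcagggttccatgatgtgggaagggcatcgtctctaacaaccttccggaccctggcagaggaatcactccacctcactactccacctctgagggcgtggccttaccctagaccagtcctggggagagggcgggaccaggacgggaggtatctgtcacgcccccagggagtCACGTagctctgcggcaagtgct
Ldha: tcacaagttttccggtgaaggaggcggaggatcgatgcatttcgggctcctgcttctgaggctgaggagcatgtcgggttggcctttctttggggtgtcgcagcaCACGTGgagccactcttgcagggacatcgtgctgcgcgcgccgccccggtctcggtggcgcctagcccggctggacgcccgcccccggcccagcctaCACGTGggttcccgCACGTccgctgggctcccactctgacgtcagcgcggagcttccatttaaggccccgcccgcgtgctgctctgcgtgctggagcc
Of the hypoxia list 26 tested members had a window, and 16 of these held the motif on either strand (61.54%), as did 11 of 21 members of the glycolysis list (52.38%) and 4 of 18 of the sterol synthesis list (22.22%). Over all tested genes with a window the share was 25.36%, or 2604 of 10269. Ldha holds it at 3 places and the others at 1. The hypoxia list is made of genes that HIF is known to activate, so its high share follows from that choice and is not evidence from these data. A match is a run of letters and not a measured binding site, and no binding was measured.

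Glycolysis fell at nearly every step. Of 22 tested genes 19 fell and 0 rose, with a median of -2.11, and the summed CPM of the list was 3617, 3450 and 3476 at 2 dyn/cm2, against 13765, 12775 and 12730 in static cells. Glucose uptake came first: the transporter Slc2a1 had 54.9, 53.9 and 53.8 CPM at 2 dyn/cm2, against 434, 394 and 392 CPM in static cells (log2 fold change -2.91 ± 0.04, adjusted p = 7.53e-39). The phosphorylating enzymes followed, with Hk2, the inducible hexokinase, at 31.1, 30.8 and 33.4 CPM at 2 dyn/cm2, against 146, 145 and 139.6 CPM in static cells (log2 fold change -2.18 ± 0.05, adjusted p = 6.8e-34), and the constitutive Hk1 (-1.13) down less. In both the groups were apart. Of the phosphofructokinase genes, which commit glucose to the pathway, Pfkl had 129.6, 129 and 127 CPM at 2 dyn/cm2, against 1019, 952 and 924 CPM in static cells (log2 fold change -2.91 ± 0.04, adjusted p = 7.13e-38) and Pfkp (-2.43) fell alike, while the muscle form Pfkm had 151, 149.8 and 142 CPM at 2 dyn/cm2, against 187, 176 and 181 CPM in static cells (log2 fold change -0.30 ± 0.04, adjusted p = 1.32e-09). The liver and platelet forms thus changed far more than the muscle form. Of the aldolases, Aldoc had 13.6, 11.1 and 11.5 CPM at 2 dyn/cm2, against 264, 258 and 244 CPM in static cells (log2 fold change -4.40 ± 0.06, adjusted p = 2.88e-41) and Aldoa, the widely used form, had 400.4, 362 and 373 CPM at 2 dyn/cm2, against 2070.5, 1939 and 1878 CPM in static cells (log2 fold change -2.37 ± 0.04, adjusted p = 6.24e-38).

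The later steps fell too, with Tpi1 (-2.12), Gapdh (-2.11), Pgk1 (-2.26), Pgam1 (-1.66), Eno1 (-1.66) and Eno2 (-2.36). Gapdh, Pgk1 and Eno1 have many near-identical pseudogenes, so their levels are uncertain. Pyruvate kinase Pkm had 1019.7, 985 and 993 CPM at 2 dyn/cm2, against 2683, 2466 and 2538 CPM in static cells (log2 fold change -1.36 ± 0.03, adjusted p = 9.06e-32). Lactate dehydrogenase Ldha had 452, 400.0 and 413 CPM at 2 dyn/cm2, against 2477, 2247 and 2261 CPM in static cells (log2 fold change -2.46 ± 0.04, adjusted p = 9.2e-31). Lactate export split by carrier: Slc16a3, the HIF-induced exporter, had 1.195, 1.02 and 1.25 CPM at 2 dyn/cm2, against 16.9, 13.3 and 14.1 CPM in static cells (log2 fold change -3.66 ± 0.14, adjusted p = 3.09e-24), while Slc16a1 had 173, 156 and 164 CPM at 2 dyn/cm2, against 164, 173 and 160.0 CPM in static cells and did not pass (adjusted p = 0.872). The libraries of Slc16a1 overlapped. The regulatory kinase Pfkfb3 (-0.67) fell, and Pfkfb4 did not pass (log2 fold change -0.10, adjusted p = 0.349).

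**Figure D3:**
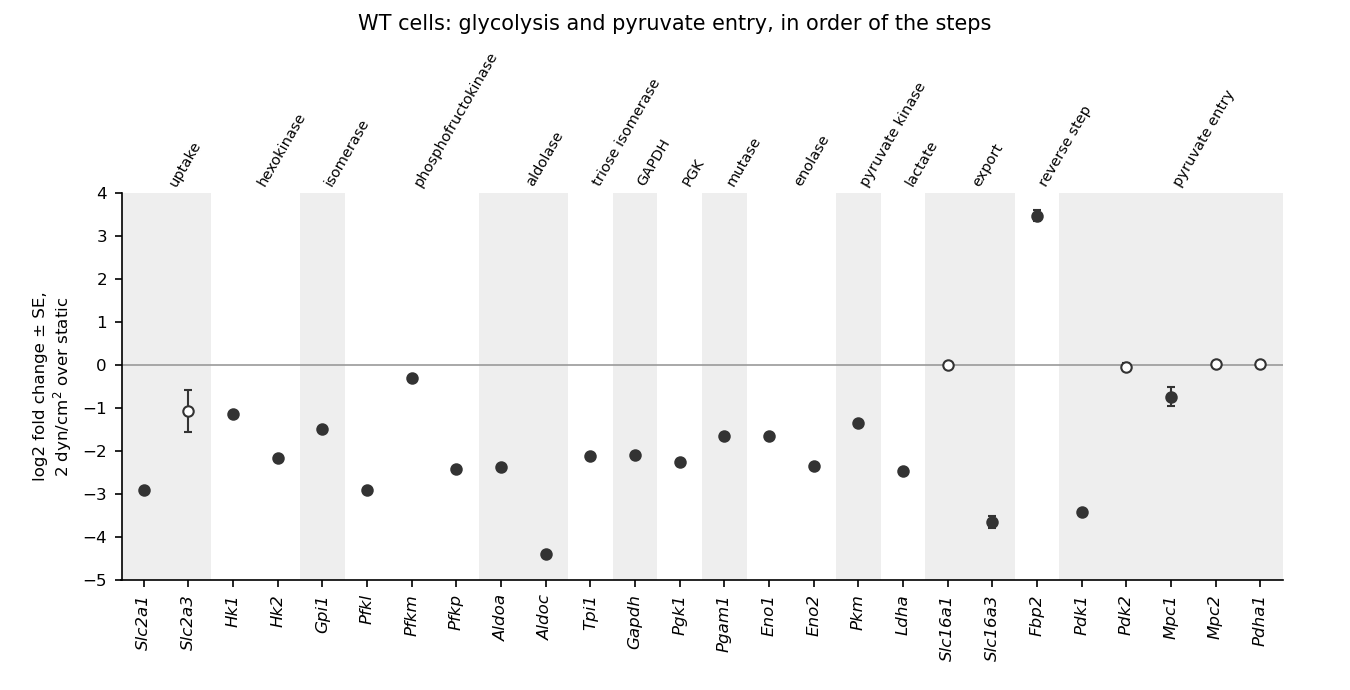
Log2 fold change of 2 dyn/cm2 over static ± SE (vertical axis) for WT genes of glycolysis and pyruvate entry, in order of the steps from left to right; filled points passed the test and open points did not. Most points lie below 0, down to Aldoc at -4.40, while Slc16a1 lies at -0.01 and Fbp2, the reverse step, at 3.48.

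The reverse step rose. Fbp2 (ENSMUSG00000021456, chr13:62836877-62858422, minus strand), a fructose bisphosphatase that undoes the phosphofructokinase step, had 20.9, 19.5 and 20.3 CPM at 2 dyn/cm2, against 2.55, 1.47 and 1.44 CPM in static cells (log2 fold change 3.48 ± 0.14, adjusted p = 2.37e-24). Tigar, which lowers the activator of phosphofructokinase and sends glucose to the pentose pathway, had 29.8, 32.8 and 30.5 CPM at 2 dyn/cm2, against 17.6, 18.9 and 18.7 CPM in static cells (log2 fold change 0.75 ± 0.07, adjusted p = 5.48e-13). In the pentose pathway the oxidative enzyme G6pdx (0.24) and the nonoxidative Taldo1 (0.18) and Rpe (0.26) rose by small amounts, and Tkt (-0.43), Pgls (-0.65) and Rpia (-0.46) fell. The gluconeogenesis and pentose list had 7 of 11 members higher and 3 lower.

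Mitochondrial genes moved little. Of 25 respiratory chain genes 15 rose and 1 fell, with a median of 0.16, but without replicate 1 at 2 dyn/cm2 10 rose and 2 fell, and with library totals 21 rose. Among the changes that passed were those of Ndufa4, a subunit of the terminal oxidase, at 143, 125 and 130.0 CPM at 2 dyn/cm2, against 94.5, 91.7 and 90.8 CPM in static cells (log2 fold change 0.52 ± 0.05, adjusted p = 3.7e-13), and of the complex I subunits Ndufa9 (0.36) and Ndufv1 (0.35). Of 21 genes of pyruvate entry and the tricarboxylic acid cycle 9 rose and 3 fell, with a median of 0.07, and with library totals 14 rose. Among the rises were Ogdh (0.39) and Idh3a (0.35), dehydrogenases of the cycle, and among the falls Mpc1 (-0.75), a pyruvate carrier subunit at low level, and Pdp2 (-0.59), the phosphatase that opposes the PDK kinases. Pdha1, the subunit those kinases act on, had 125, 123 and 119 CPM at 2 dyn/cm2, against 119, 116 and 123 CPM in static cells and did not pass (adjusted p = 0.461).

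More genes of fat import, storage and oxidation rose than fell, and most of those of fat and sterol synthesis fell. Of 31 PPAR and fat oxidation genes 17 rose and 6 fell, with a median of 0.37. Angptl4 (ENSMUSG00000002289, chr17:33773750-33781830, minus strand), a secreted lipase inhibitor and PPAR target that HIF also activates, had 65.2, 58.6 and 57.8 CPM at 2 dyn/cm2, against 1.37, 1.75 and 1.72 CPM in static cells (log2 fold change 5.22 ± 0.11, adjusted p = 3.24e-34). It was the highest of all tested genes of at least 5 CPM by log2 fold change, with no overlap. Cpt1a (ENSMUSG00000024900, chr19:3322334-3385733, plus strand), the enzyme that gates the entry of fatty acids into mitochondria, had 218, 237 and 236 CPM at 2 dyn/cm2, against 62.1, 62.3 and 59.3 CPM in static cells (log2 fold change 1.91 ± 0.04, adjusted p = 6.87e-33). Slc25a20, the carnitine shuttle next to it, had 59.4, 59.1 and 57.5 CPM at 2 dyn/cm2, against 23.2, 21.1 and 20.6 CPM in static cells (log2 fold change 1.44 ± 0.06, adjusted p = 1.4e-23). The thioesterase Acot2 had 50.96, 44.99 and 46.7 CPM at 2 dyn/cm2, against 10.1, 9.03 and 11.3 CPM in static cells (log2 fold change 2.22 ± 0.08, adjusted p = 3.72e-25). These 3 were high in every low-shear library. Of the oxidation enzymes Acadl (1.13), Acaa2 (0.62), Hadha (0.37) and Acadvl (0.30) rose, as did the droplet coat Plin2 (0.99). Among the falls were the droplet protein Hilpda (-0.89), a HIF target, the fatty acid binder Fabp5 (-0.90) and the coactivators Ppargc1a (-0.43) and Ppargc1b (-0.67). Ppara and Ppard, receptors for fatty acids, had low and moderate levels: Ppara averaged 0.5403 ± 0.0582 CPM at 2 dyn/cm2 and 0.289 ± 0.148 CPM in static cells and did not pass (adjusted p = 0.145), and Ppard (-0.40) fell. Pdk4, a PPAR target, had 5 reads over the low-shear libraries and 0 over the static ones, at least 1.47-fold higher by the same floor; its call was lost without static replicate 1 or 3 (adjusted p = 0.0529 and 0.06) and with DESeq2 (adjusted p = 0.0519).

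Of 13 fatty acid synthesis genes 11 fell and 0 rose, with a median of -0.81. Their summed CPM was 7393, 7606 and 7780 at 2 dyn/cm2, against 14775, 14376 and 14947 in static cells. Fasn (ENSMUSG00000025153, chr11:120805846-120824547, minus strand), the synthase, had 931, 1093 and 1119.9 CPM at 2 dyn/cm2, against 2378, 2292 and 2504 CPM in static cells (log2 fold change -1.19 ± 0.05, adjusted p = 4.62e-17). Scd2, the desaturase that held most of that sum, had 3987, 3979 and 4069 CPM at 2 dyn/cm2, against 8259, 7924 and 8263 CPM in static cells (log2 fold change -1.02 ± 0.03, adjusted p = 1.05e-28). No library of either gene crossed to the other group. Acacb, the acetyl-CoA carboxylase at the mitochondrial surface whose product blocks CPT1, had 12.3, 12.1 and 13.7 CPM at 2 dyn/cm2, against 57.6, 60.5 and 58.2 CPM in static cells (log2 fold change -2.20 ± 0.07, adjusted p = 7.17e-28), and its cytosolic relative Acaca (-1.07), the acetate enzyme Acss2 (-1.67), the citrate lyase Acly (-0.81), Scd1 (-1.27) and Elovl6 (-0.70) also fell. The malic enzyme Me1 did not pass (log2 fold change 0.07, adjusted p = 0.259).

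Of 26 sterol synthesis genes 22 fell and 2 rose, with a median of -0.76, and their summed CPM was 4234, 4167 and 4263 at 2 dyn/cm2, against 7336, 7390 and 7338 in static cells. Lss, which closes the sterol ring, had 117, 122 and 129 CPM at 2 dyn/cm2, against 420.1, 436 and 429 CPM in static cells (log2 fold change -1.80 ± 0.04, adjusted p = 1.06e-34), the largest fall of the list. The entry enzyme Hmgcs1 (-1.28), Mvd (-1.21), Fdps (-1.13), Msmo1 (-1.05), Sqle (-0.78) and Cyp51 (-0.67) fell as well. So did the sterol sensor Insig1 (-1.12) and the regulator genes Srebf2 (-0.41) and Srebf1 (-0.44). The rises were those of Hsd17b7, a ketoreductase of the pathway, with 119.6, 123 and 131 CPM at 2 dyn/cm2, against 90.5, 89.8 and 92.2 CPM in static cells (log2 fold change 0.46 ± 0.04, adjusted p = 1.01e-12), and of the SREBP escort Scap (0.25). Idi1, an isomerase of the pathway, did not pass (log2 fold change -0.28, adjusted p = 0.142). Of 10 sterol efflux and LXR genes 7 fell and 1 rose, among the falls the carrier protein Apoe (-0.70) and the exporter Abcg1 (-0.498).

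**Figure D4:**
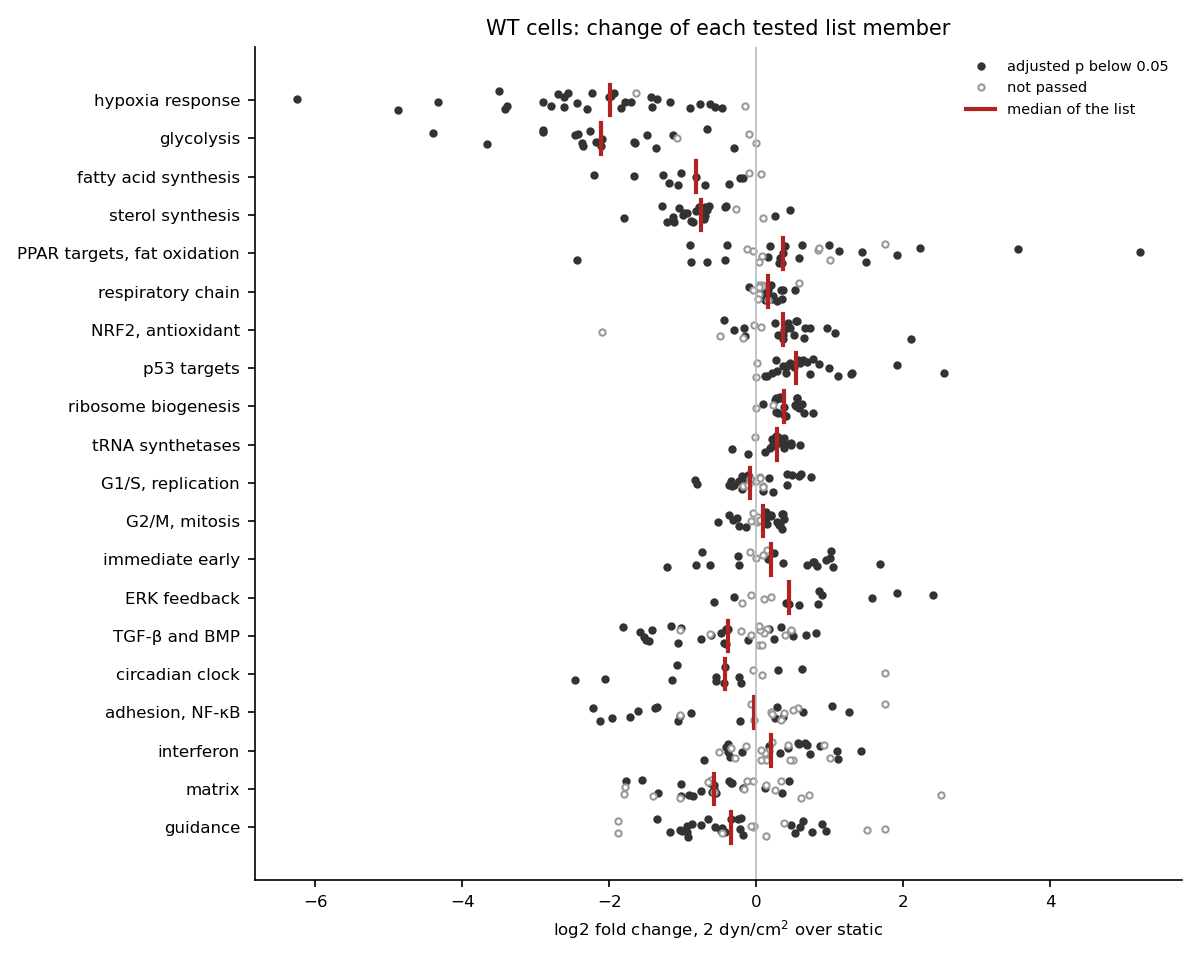
Log2 fold change of 2 dyn/cm2 over static in WT cells (horizontal axis) for each tested member of 20 gene lists; dark points passed the test, open points did not, and the red bar is the list median. The hypoxia and glycolysis medians lie at -1.99 and -2.11 and the p53 median at 0.54, while Adm and other genes with 0 reads in a group are drawn at their fitted values and not at their bounds.

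Targets of the aryl hydrocarbon receptor (AhR) and of NRF2, which answer xenobiotics and oxidants, rose more often than they fell. Cyp1b1 (ENSMUSG00000024087, chr17:79701537-79715061, minus strand), a monooxygenase induced by AhR, had 129, 134 and 129.9 CPM at 2 dyn/cm2, against 23.6, 26.9 and 27.1 CPM in static cells (log2 fold change 2.34 ± 0.05, adjusted p = 3.55e-33). Nqo1, a quinone reductase under both factors, had 2.77, 2.58 and 2.66 CPM at 2 dyn/cm2, against 0.457, 1.05 and 0.402 CPM in static cells (log2 fold change 2.10 ± 0.28, adjusted p = 1.57e-08). Both were high in all 3 low-shear libraries. Cyp1a1, the classic AhR target, had 27 reads at 2 dyn/cm2 and 0 in static cells, at least 7.91-fold higher by the floor of 3 reads, Tiparp (0.23) rose slightly, and the receptor gene Ahr (-0.33) fell. Of 25 NRF2 and antioxidant genes 16 rose and 4 fell (17 and 2 with library totals), with a median of 0.37. Osgin1, an oxidant-induced growth inhibitor, had 68.3, 63.2 and 66.1 CPM at 2 dyn/cm2, against 30.4, 31.4 and 32.3 CPM in static cells (log2 fold change 1.07 ± 0.06, adjusted p = 5.89e-19). Hmox1, the haem-degrading enzyme, had 76.7, 75.3 and 74.8 CPM at 2 dyn/cm2, against 48.5, 50.2 and 45.9 CPM in static cells (log2 fold change 0.65 ± 0.05, adjusted p = 8.57e-15). The groups of both were apart. The ferritin heavy chain Fth1 (0.96), the glutathione enzymes Gclc (0.56), Gclm (0.46) and Gstm1 (0.54), and the thioredoxin and peroxiredoxin genes Txnrd1 (0.52), Prdx1 (0.43) and Srxn1 (0.37) rose, as did the factor's own gene Nfe2l2 (0.58), and its repressor Keap1 (-0.45) fell.

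Genes that p53 activates rose. Of 26 tested targets 24 rose and 0 fell, with a median of 0.54. Ccng1 (ENSMUSG00000020326, chr11:40748552-40755311, minus strand), a cyclin that restrains p53, had 207, 204 and 207 CPM at 2 dyn/cm2, against 52.2, 58.1 and 53.4 CPM in static cells (log2 fold change 1.92 ± 0.04, adjusted p = 1.04e-32). Eda2r, a receptor of the TNF receptor family, had 11.8, 13.2 and 13.8 CPM at 2 dyn/cm2, against 1.89, 2.59 and 2.13 CPM in static cells (log2 fold change 2.56 ± 0.13, adjusted p = 2.77e-20). Every low-shear library of both was higher than every static one. Cdkn1a, the p21 cell cycle inhibitor, had 286, 266 and 265 CPM at 2 dyn/cm2, against 203, 175 and 194 CPM in static cells (log2 fold change 0.51 ± 0.04, adjusted p = 2.22e-13). Mdm2, the ligase that degrades p53, had 150.2, 142 and 147 CPM at 2 dyn/cm2, against 107, 103 and 108 CPM in static cells (log2 fold change 0.46 ± 0.04, adjusted p = 1.77e-13). The rises of these best-known targets were smaller. Gdf15, a secreted stress cytokine, had 40.8, 37.1 and 34.9 CPM at 2 dyn/cm2, against 15.3, 14.3 and 15.98 CPM in static cells (log2 fold change 1.30 ± 0.07, adjusted p = 4.68e-19), and Plk3 (1.12), Aen (0.99), Gtse1 (0.78), Trp53inp1 (0.73), Btg2 (0.68) and Rrm2b (0.63) rose, as did the gene of p53 itself, Trp53 (0.41). Ddb2 and Sesn1 did not pass (adjusted p = 0.965 and 0.923). In the apoptosis list, 9 of 22 genes rose and 7 fell (11 and 4 with library totals): the BH3-only genes Bcl2l11 (-1.24) and Bmf (-1.08) fell, and the survival gene Bcl2 (0.69) rose.

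Genes for making ribosomes and charging tRNA rose by small and even amounts. Of 21 genes of ribosome biogenesis and MYC targets 19 rose and 0 fell, with a median of 0.37. Rrp9, a component of the particle that processes ribosomal RNA, had 45.2, 46.7 and 44.7 CPM at 2 dyn/cm2, against 24.3, 27.01 and 28.5 CPM in static cells (log2 fold change 0.77 ± 0.06, adjusted p = 2.17e-15). Myc, the growth factor-induced transcription factor, had 203, 198 and 198 CPM at 2 dyn/cm2, against 153, 151 and 174 CPM in static cells (log2 fold change 0.33 ± 0.04, adjusted p = 1.7e-08). No library overlapped for either. Rrs1 (0.65), Nop58 (0.62), Wdr12 (0.58), Dkc1 (0.55) and Nop2 (0.53), all nucleolar assembly factors, rose. Fbl, the methyltransferase of the nucleolus, did not pass (log2 fold change 0.00, adjusted p = 1). Of 18 cytosolic tRNA synthetases 15 rose and 2 fell, with a median of 0.29, led by Tars for threonine at 631, 587 and 612 CPM at 2 dyn/cm2, against 400.2, 382 and 429 CPM in static cells (log2 fold change 0.60 ± 0.04, adjusted p = 1.43e-17), while Vars for valine had 316, 310.4 and 309 CPM at 2 dyn/cm2, against 395, 384 and 399 CPM in static cells (log2 fold change -0.33 ± 0.03, adjusted p = 4.65e-11). Of 27 genes of the unfolded protein and ATF4 responses 15 rose and 4 fell, with a median of 0.15: Asns (0.63) for asparagine and the chaperone Hspa5 (0.37) rose, and the stress factor Ddit3 did not pass (log2 fold change 0.02, adjusted p = 0.899).

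Cell cycle genes split within each phase, beside 32.6% of all tested genes that rose and 30.3% that fell. Of 33 genes of G1/S and replication 9 rose and 14 fell, with a median of -0.09 that became 0.02, with 15 rises, when library totals were the scaling. The S-phase inducer E2f1 had 73.6, 69.8 and 72.3 CPM at 2 dyn/cm2, against 137, 124 and 123 CPM in static cells (log2 fold change -0.83 ± 0.05, adjusted p = 5.95e-19). The inhibitor Cdkn1b had 91.7, 89.03 and 87.6 CPM at 2 dyn/cm2, against 164, 154 and 153 CPM in static cells (log2 fold change -0.81 ± 0.04, adjusted p = 3.91e-20). An inducer and an inhibitor of S phase were thus both low at 2 dyn/cm2. Cyclins Ccne1 (0.74) and Ccnd1 (0.58) and the nucleotide enzymes Rrm2 (0.61) and Tyms (0.42) rose, and the helicase genes Mcm6 (-0.33), Mcm2 (-0.20) and Mcm7 (-0.19) fell. Of 24 mitotic genes 12 rose and 6 fell. Mki67, the proliferation marker, which is a long gene, had 602, 715 and 714 CPM at 2 dyn/cm2, against 963, 993 and 959.9 CPM in static cells (log2 fold change -0.52 ± 0.05, adjusted p = 1.24e-08), while Ccnb1 (0.38), Plk1 (0.37), Kif20a (0.35) and Aurka (0.32) rose.

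Genes downstream of growth factor signalling through ERK rose. Of 15 ERK feedback genes 9 rose and 2 fell, with a median of 0.44. Etv5, an ETS transcription factor, had 5.38, 5.71 and 4.94 CPM at 2 dyn/cm2, against 1.31, 1.399 and 1.49 CPM in static cells (log2 fold change 1.92 ± 0.18, adjusted p = 4.91e-12). Spry4, an inhibitor of receptor signalling, had 2.83, 3.36 and 3.91 CPM at 2 dyn/cm2, against 0.718, 1.19 and 1.44 CPM in static cells (log2 fold change 1.57 ± 0.22, adjusted p = 6.58e-08). All static libraries of both lay below those at 2 dyn/cm2. The phosphatases Dusp5 (0.90) and Dusp2 (0.85), the factor Etv4 (0.84) and the inhibitor Spry1 (0.58) rose, and Dusp1 (-0.57) and Spred3 (-0.30) fell. Dusp6, a standard readout of ERK, had 39.9, 38.99 and 37.7 CPM at 2 dyn/cm2, against 47.3, 33.9 and 50.8 CPM in static cells and did not pass (adjusted p = 0.0754), but was called lower without static replicate 2 (log2 fold change -0.34, adjusted p = 3.88e-06). Of 22 immediate early genes 12 rose and 6 fell: Egr1 had 193, 219.9 and 201 CPM at 2 dyn/cm2, against 93.3, 105 and 107 CPM in static cells (log2 fold change 1.01 ± 0.05, adjusted p = 7.02e-17), and Fosb (1.05), Nr4a1 (1.02), Egr3 (0.95), Ier2 (0.78) and Fos (0.77) rose. Maff (-1.21), Fosl2 (-0.82), Junb (-0.74) and Ier3 (-0.63) fell, so the AP-1 factors split.

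More genes of TGF-beta and BMP signalling fell than rose. Of 37 TGF-beta and BMP genes 18 fell and 7 rose, with a median of -0.38. Id3, an inhibitor of differentiation factors and a direct BMP target, had 14.8, 14.7 and 14.1 CPM at 2 dyn/cm2, against 45.2, 38.8 and 41.4 CPM in static cells (log2 fold change -1.53 ± 0.11, adjusted p = 4.09e-10), and Id2 (-1.42) and Id1 (-0.75) fell too. Smad6, the BMP-induced inhibitory SMAD, had 7.99, 9.19 and 8.84 CPM at 2 dyn/cm2, against 18.9, 17.8 and 16.4 CPM in static cells (log2 fold change -1.03 ± 0.10, adjusted p = 5.63e-12). Smad9, a BMP SMAD, had 0.978, 1.502 and 1.03 CPM at 2 dyn/cm2, against 3.79, 4.898 and 3.74 CPM in static cells (log2 fold change -1.82 ± 0.21, adjusted p = 7.28e-10). In each of these the groups were apart. The ligand Bmp7 (-1.58), the activin subunit Inhba (-1.46), its antagonist Fstl3 (-1.502), the receptors Bmpr1a (-0.40) and Bmpr2 (-0.38) and the latent TGF-beta binder Ltbp1 (-1.17) fell, while the ligands Bmp6 (0.81) and Tgfb1 (0.49) rose. With library totals as the scaling 12 members rose and 17 fell.

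Other signalling lists held changes in both directions, as did all tested genes (32.6% rose and 30.3% fell). The Notch ligands Jag1 and Jag2 had falls of -0.74 ± 0.05 and -0.90 ± 0.06 on the log2 scale, and the targets Hes1 and Nrarp did not pass (adjusted p = 0.7 and 0.745). Axin2, a feedback target of Wnt, had 12.4, 11.4 and 12.5 CPM at 2 dyn/cm2, against 7.25, 5.81 and 6.32 CPM in static cells (log2 fold change 0.90 ± 0.10, adjusted p = 1.65e-10), while the co-receptor Lrp5 (-0.85) and the ligand Wnt4 (-1.28) fell. Igf1r, the receptor for insulin-like growth factors, had 93.5, 100.2 and 111 CPM at 2 dyn/cm2, against 274, 254 and 257 CPM in static cells (log2 fold change -1.37 ± 0.04, adjusted p = 2.14e-27), and the insulin receptor Insr (-0.54) fell as well. Axin2 was the higher, and Igf1r the lower, in all 3 low-shear libraries. Of 23 YAP and TAZ genes, which answer stretch and matrix stiffness, 8 rose and 9 fell, or 5 and 9 without static replicate 3 or with RLE factors: Ccn2 had 95.8, 96.4 and 97.9 CPM at 2 dyn/cm2, against 43.5, 55.3 and 53.04 CPM in static cells (log2 fold change 0.93 ± 0.09, adjusted p = 2.57e-07), Ccn1 179, 175 and 175 CPM at 2 dyn/cm2, against 121, 131 and 137 CPM in static cells (log2 fold change 0.45 ± 0.04, adjusted p = 2.54e-12), and the DNA-binding partner Tead1 (-0.64) fell. Ankrd1, another target, had 160.4, 154 and 155 CPM at 2 dyn/cm2, against 128, 133 and 137 CPM in static cells (log2 fold change 0.24 ± 0.04, adjusted p = 1.46e-06).

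The primary cilium and hedgehog list had 11 of 30 members lower and 4 higher, or 7 lower and 8 higher with library totals. Ift88, the gene disrupted in orpk, had 13.9, 15.5 and 14.2 CPM at 2 dyn/cm2, against 13.4, 17.4 and 15.98 CPM in static cells and did not pass (adjusted p = 0.29); without static replicate 1 it did (log2 fold change -0.20, adjusted p = 0.0479). The polycystins, a channel and its receptor at the cilium, fell: Pkd1, a long gene, had 116, 151 and 161 CPM at 2 dyn/cm2, against 231, 231 and 231 CPM in static cells (log2 fold change -0.70 ± 0.08, adjusted p = 2.23e-06). Pkd2 had 171, 185 and 176 CPM at 2 dyn/cm2, against 268, 239.8 and 259 CPM in static cells (log2 fold change -0.53 ± 0.04, adjusted p = 1.28e-14). Gli1, the target that reports hedgehog signalling, rose at a low level, with 1.03, 1.38 and 1.52 CPM at 2 dyn/cm2, against 0.522, 0.4198 and 0.517 CPM in static cells (log2 fold change 1.41 ± 0.30, adjusted p = 8.54e-05). Of 23 other genes of flow sensing 11 fell and 4 rose. The caveola proteins Cav1 (-0.65) and Cavin1 (-0.65), the G protein subunits Gna13 (-0.63) and Gnaq (-0.39) and the guidance receptor Plxnd1 (-0.49), which also senses flow, fell. The flow-gated channel Piezo1 had 104, 131 and 129.8 CPM at 2 dyn/cm2, against 131, 144 and 139.6 CPM in static cells, with a fall (log2 fold change -0.19 ± 0.06, adjusted p = 0.00686) that was lost without replicate 1 at 2 dyn/cm2 (log2 fold change -0.08, adjusted p = 0.0537). The ATP release channel Panx1 (1.64) and the connexin Gja1 (0.76) rose.

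The KLF factors known from laminar flow did not rise. Klf2 had 8.48, 6.61 and 6.73 CPM at 2 dyn/cm2, against 6.98, 5.32 and 6.95 CPM in static cells and did not pass (adjusted p = 0.301). Klf4 had 16.7, 15.5 and 16.8 CPM at 2 dyn/cm2, against 49.1, 38.4 and 46.1 CPM in static cells (log2 fold change -1.45 ± 0.08, adjusted p = 8.91e-18). Libraries overlapped for Klf2 and were apart for Klf4. Of 12 KLF genes 2 rose, Klf11 (0.63) and Klf10 (0.16), and 6 fell, or 4 and 6 with library totals. Nos3, at 1.63, 1.08 and 1.03 CPM at 2 dyn/cm2, against 2.28, 2.66 and 2.41 CPM in static cells, fell (log2 fold change -0.96 ± 0.23, adjusted p = 0.000355), as did the vasoconstrictor Edn1, with 4.07, 3.36 and 3.47 CPM at 2 dyn/cm2, against 8.42, 8.12 and 7.07 CPM in static cells (log2 fold change -1.10 ± 0.14, adjusted p = 3.58e-09). Nos2, the inducible nitric oxide synthase, had 3 reads at 2 dyn/cm2 and 160 reads in static cells, 60.7-fold lower with a 95% exact counting interval of 20.4 to 297. Of 22 vasoactive genes 11 fell and 3 rose. The peptide Apln had 64.3, 63.3 and 60.9 CPM at 2 dyn/cm2, against 174, 145 and 156 CPM in static cells (log2 fold change -1.34 ± 0.05, adjusted p = 1.28e-25). Npr3, the clearance receptor of natriuretic peptides, had 128, 135 and 142 CPM at 2 dyn/cm2, against 325, 323 and 287 CPM in static cells (log2 fold change -1.204 ± 0.05, adjusted p = 1.13e-20). Ptgs2, the inducible cyclooxygenase, had 18.4, 20.3 and 21.7 CPM at 2 dyn/cm2, against 8.94, 9.45 and 11.6 CPM in static cells (log2 fold change 1.00 ± 0.13, adjusted p = 3.52e-06). Ramp3, a partner of the adrenomedullin receptor, had 34.2, 26.01 and 27.7 CPM at 2 dyn/cm2, against 9.14, 8.05 and 12.4 CPM in static cells (log2 fold change 1.56 ± 0.12, adjusted p = 3.54e-11). Low-shear libraries were lower for Apln and Npr3 and higher for Ptgs2 and Ramp3.

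Among vessel growth factors and receptors, 13 of 32 genes fell and 6 rose. Flt1, a VEGF receptor, had 13.8, 16.8 and 15.8 CPM at 2 dyn/cm2, against 41.2, 39.2 and 40.7 CPM in static cells (log2 fold change -1.39 ± 0.07, adjusted p = 1.66e-21). Nrp2, a co-receptor, had 35.3, 40.01 and 41.2 CPM at 2 dyn/cm2, against 135, 112 and 131 CPM in static cells (log2 fold change -1.70 ± 0.06, adjusted p = 3.23e-21). Vegfb (-1.28), Vegfd (-1.08), Pdgfc (-0.99), Pdgfa (-0.76) and Pdgfb (-0.62) fell beside Vegfa, and Nrp1 (0.504), Hbegf (0.63) and Fgf18 (1.06) rose. Nrp1 and Nrp2, related receptors, thus changed in opposite directions. The median of this list, -0.53, becomes -0.34 with genes at 0 or few reads set to their bound or to no change. Of its members 12 lie under 1 CPM.

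The circadian clock list had 10 of 15 genes lower and 2 higher, with a median of -0.42. Bhlhe41, a repressor of the clock that HIF also activates, had 10.6, 10.5 and 9.28 CPM at 2 dyn/cm2, against 44.8, 39.95 and 41.9 CPM in static cells (log2 fold change -2.06 ± 0.07, adjusted p = 1.63e-25). Its relative Bhlhe40 had 54.9, 46.8 and 49.98 CPM at 2 dyn/cm2, against 204, 204 and 200.2 CPM in static cells (log2 fold change -2.001 ± 0.04, adjusted p = 1.43e-33). Ciart, a clock repressor, had 4.35, 3.66 and 4.18 CPM at 2 dyn/cm2, against 24.2, 20.8 and 22.5 CPM in static cells (log2 fold change -2.46 ± 0.10, adjusted p = 4.04e-24). Each was low in all 3 low-shear libraries. The core activator Arntl (-0.54) and the output factors Dbp (-1.15) and Nfil3 (-1.08) fell, and Per2 (0.62) and Nr1d2 (0.30) rose. The times of day of collection are not given in the sources used here.

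Inflammatory genes split. Of 27 adhesion and NF-kB genes 11 fell and 6 rose, and 11 lie under 1 CPM. Vcam1, a leukocyte adhesion molecule, had 2.93, 3.004 and 3.31 CPM at 2 dyn/cm2, against 10.8, 9.94 and 9.88 CPM in static cells (log2 fold change -1.72 ± 0.19, adjusted p = 1.19e-07). The chemokine Ccl2, which draws monocytes, had 9.94, 8.29 and 7.71 CPM at 2 dyn/cm2, against 17.1, 18.3 and 18.7 CPM in static cells (log2 fold change -1.06 ± 0.09, adjusted p = 4.38e-13). Cxcl1, which draws neutrophils, had 12.9, 14.5 and 16.01 CPM at 2 dyn/cm2, against 29.5, 28.5 and 31.1 CPM in static cells (log2 fold change -1.04 ± 0.10, adjusted p = 1.67e-10). The feedback inhibitors Tnfaip3 (-1.37) and Nfkbia (-0.89) fell with them. Cxcl10, an interferon-induced chemokine, had 45.4, 45.7 and 46.8 CPM at 2 dyn/cm2, against 20.95, 24.1 and 22.4 CPM in static cells (log2 fold change 1.03 ± 0.09, adjusted p = 7.19e-10). Ccl5 had 16.6, 16.5 and 18.3 CPM at 2 dyn/cm2, against 7.64, 7.14 and 6.72 CPM in static cells (log2 fold change 1.26 ± 0.16, adjusted p = 1.67e-06). These chemokines were higher in each low-shear library than in any static one. Of 34 interferon genes 12 rose and 6 fell: Isg15 had 27.9, 25.1 and 23.2 CPM at 2 dyn/cm2, against 19.6, 13.4 and 13.1 CPM in static cells (log2 fold change 0.73 ± 0.13, adjusted p = 9.29e-05), and Oas1a (1.11), Rsad2 (0.87), Ifit1 (0.69) and Irf7 (0.58) rose, while Psmb8 (-0.72), Ifit2 (-0.41), Irf1 (-0.38), Irf9 (-0.38) and Stat2 (-0.36) fell. Complement C3 had 29.5, 34.3 and 33.6 CPM at 2 dyn/cm2, against 19.3, 16.4 and 19.8 CPM in static cells (log2 fold change 0.80 ± 0.12, adjusted p = 7.08e-06).

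More matrix genes fell than rose, beside the length values given above. Of 24 collagen genes 14 fell and 4 rose, with a median of -0.38, and without replicate 1 at 2 dyn/cm2 10 fell. Col4a3 and Col4a4, neighbours that form a basement membrane collagen, had 1.85, 1.98 and 2.01 CPM at 2 dyn/cm2, against 7.64, 8.19 and 7.41 CPM in static cells and 3.97, 3.96 and 4.88 CPM at 2 dyn/cm2, against 14.3, 17.00 and 15.5 CPM in static cells (log2 fold change -1.99 ± 0.15, adjusted p = 7.47e-15 for Col4a3, and log2 fold change -1.86 ± 0.11, adjusted p = 1.17e-18 for Col4a4). Col4a1 and Col4a2, the common chains of the same collagen, rose at low levels, by 0.81 ± 0.16 and 0.96 ± 0.13 on the log2 scale. The chains of type IV collagen thus split by pair. Col1a1, of fibrillar collagen, had 696, 699 and 720.4 CPM at 2 dyn/cm2, against 962, 991 and 1022 CPM in static cells (log2 fold change -0.49 ± 0.05, adjusted p = 1.4e-09). Of 37 other matrix genes 18 fell and 3 rose, with a median of -0.57. Hspg2, the heparan sulphate proteoglycan perlecan, had 514, 727 and 797 CPM at 2 dyn/cm2, against 1745, 1676 and 1724 CPM in static cells (log2 fold change -1.34 ± 0.12, adjusted p = 2.78e-07). The laminin chain Lama5 had 544, 687 and 713 CPM at 2 dyn/cm2, against 1337, 1275 and 1328 CPM in static cells (log2 fold change -1.02 ± 0.07, adjusted p = 3.58e-09). Among the members of at least 5 CPM, 3 of 14 collagens and 5 of 19 other matrix genes lie in the longest bin, and their medians were -0.36 and -0.34 relative to the median of each gene's length bin.

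Cell surface partners of the matrix fell more often than they rose, with 9 of 19 integrins lower and 3 higher. Itgb6 (-1.23), Itga7 (-0.80), Itga6 (-0.65) and Itgav (-0.58) fell and Itgb3 (1.58) rose. Thbs1, an abundant matrix glycoprotein, had 1134, 1239 and 1249 CPM at 2 dyn/cm2, against 815, 800.1 and 841 CPM in static cells (log2 fold change 0.56 ± 0.03, adjusted p = 1.6e-17). The protease Adamts5 had 65.6, 65.4 and 75.3 CPM at 2 dyn/cm2, against 191, 183 and 178 CPM in static cells (log2 fold change -1.42 ± 0.05, adjusted p = 1.63e-21), and Mmp14 (-0.46) fell while Timp1 (0.53) rose. In the mesenchymal and contractile list 12 of 24 genes fell and 5 rose, among the falls Vim (-0.37), Tpm1 (-0.46) and Cald1 (-0.48), and among the rises Tagln (0.42); Acta2, smooth muscle actin, had 0.435, 0.841 and 0.814 CPM at 2 dyn/cm2, against 0.849, 0.7697 and 0.747 CPM in static cells and did not pass (adjusted p = 0.701). Of 37 genes of axon and vessel guidance 20 fell and 7 rose, with a median of -0.34. That median is -0.23 with genes at 0 or few reads set to their bound or to no change. The semaphorins Sema3f (-0.95), Sema3e (-0.93), Sema3a (-0.88) and Sema4d (-0.94) and the netrin Ntn4 (-1.18) fell, and the ephrin and Eph genes Efnb1 (0.89) and Epha2 (0.59) and Sema3c (0.47) rose.

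Other large falls were those of genes not yet named. The small proline-rich proteins of the epithelial envelope fell: Sprr1a had 2.12, 2.04 and 2.01 CPM at 2 dyn/cm2, against 71.7, 49.1 and 55.3 CPM in static cells (log2 fold change -4.83 ± 0.14, adjusted p = 1.37e-20). Sprr2g had 2.23, 2.52 and 2.39 CPM at 2 dyn/cm2, against 48.1, 44.1 and 40.9 CPM in static cells (log2 fold change -4.22 ± 0.11, adjusted p = 8.7e-29). Krt19, an epithelial keratin, had 18.3, 18.8 and 16.4 CPM at 2 dyn/cm2, against 173, 159.6 and 154 CPM in static cells (log2 fold change -3.18 ± 0.06, adjusted p = 1.34e-30), while the keratin Krt18 had 156, 149.6 and 151 CPM at 2 dyn/cm2, against 147, 149.9 and 156 CPM in static cells and did not pass (adjusted p = 0.914). Vldlr, a lipoprotein receptor, had 18.5, 20.3 and 18.7 CPM at 2 dyn/cm2, against 225, 211 and 199 CPM in static cells (log2 fold change -3.46 ± 0.06, adjusted p = 6.24e-38). Slc4a4, a sodium bicarbonate cotransporter, had 4.999, 7.21 and 5.75 CPM at 2 dyn/cm2, against 49.1, 51.9 and 47.9 CPM in static cells (log2 fold change -3.06 ± 0.09, adjusted p = 1.99e-29). Espn, an actin bundler of microvilli, had 0.652, 0.901 and 0.868 CPM at 2 dyn/cm2, against 12.9, 12.6 and 15.1 CPM in static cells (log2 fold change -4.06 ± 0.17, adjusted p = 1.39e-23). Static libraries of each were many times those at 2 dyn/cm2. Pax2, a kidney transcription factor, had 51.5, 51.00 and 54.3 CPM at 2 dyn/cm2, against 143, 108 and 145 CPM in static cells (log2 fold change -1.34 ± 0.09, adjusted p = 2.75e-09). Aire, the autoimmune regulator, had 0 reads at 2 dyn/cm2, against 201, 238 and 227 reads in static cells, at least 253-fold lower by the same floor.

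Among other rises, Inka2, an inhibitor of PAK4, had 13.4, 11.2 and 12.7 CPM at 2 dyn/cm2, against 1.11, 1.26 and 1.32 CPM in static cells (log2 fold change 3.33 ± 0.14, adjusted p = 7.34e-23). Slc43a2, a carrier of large neutral amino acids, had 49.8, 58.9 and 57.7 CPM at 2 dyn/cm2, against 13.4, 14.8 and 15.5 CPM in static cells (log2 fold change 1.92 ± 0.09, adjusted p = 2.06e-16). Slc38a4, another amino acid carrier, had 4.02, 4.39 and 4.07 CPM at 2 dyn/cm2, against 0.718, 1.05 and 1.21 CPM in static cells (log2 fold change 2.05 ± 0.22, adjusted p = 8.29e-11). Cldn2, a claudin that forms pores for cations, had 27.4, 30.3 and 25.9 CPM at 2 dyn/cm2, against 8.62, 8.26 and 10.4 CPM in static cells (log2 fold change 1.60 ± 0.09, adjusted p = 5.93e-18). Epcam, the epithelial adhesion molecule, had 7.77, 7.99 and 8.36 CPM at 2 dyn/cm2, against 2.94, 2.87 and 3.22 CPM in static cells (log2 fold change 1.41 ± 0.14, adjusted p = 1.14e-11). In all of these the groups were apart, which the naming rule required of Inka2, Slc43a2 and Cldn2. Adamts10, a secreted metalloprotease, had 14.2, 14.6 and 16.4 CPM at 2 dyn/cm2, against 4.896, 4.898 and 5.98 CPM in static cells (log2 fold change 1.51 ± 0.10, adjusted p = 8.66e-17). Slc30a1, a zinc exporter, had 22.7, 24.03 and 22.7 CPM at 2 dyn/cm2, against 11.3, 13.1 and 10.6 CPM in static cells (log2 fold change 1.00 ± 0.08, adjusted p = 8.08e-15).

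Low shear was next set against high shear, with WT cells at 30 dyn/cm2 beside those at 2 dyn/cm2; both comparisons use the same low-shear libraries. Of all tested genes 2245 were higher at 2 dyn/cm2 (17.2%) and 2071 lower (15.9%). The hypoxia list had 9 of 32 members higher and 5 lower at 2 dyn/cm2, with a median log2 difference of 0.07. The glycolysis list had 8 of 22 higher and 3 lower, with a median of 0.08. Bnip3 had 11.8, 8.41 and 10.1 CPM at 2 dyn/cm2, against 7.25, 7.05 and 6.62 CPM at 30 dyn/cm2 (log2 difference 0.54 ± 0.11, adjusted p = 0.000171). Angptl4 had 65.2, 58.6 and 57.8 CPM at 2 dyn/cm2, against 94.3, 104 and 95.7 CPM at 30 dyn/cm2 (log2 difference -0.69 ± 0.05, adjusted p = 1.64e-14). Ribosome biogenesis had 19 of 21 members lower at 2 than at 30 dyn/cm2 and 1 higher, with a median of -0.20, and tRNA synthetases 10 of 18 lower and 0 higher. Of 26 p53 targets 10 were lower and 3 higher at 2 dyn/cm2, and of 22 immediate early genes 12 were lower and 1 higher. Members of the ribosome, tRNA synthetase, p53 and immediate early lists that passed were thus mostly below their level at the higher shear.

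For some genes the log2 difference between the shears was larger than that between low shear and static culture. Fn1, the matrix protein fibronectin, had 2325, 2157 and 2361 CPM in static cells, 1470.1, 1947 and 1976 CPM at 2 dyn/cm2 and 4082, 4216 and 4126 CPM at 30 dyn/cm2 (log2 difference -1.204 ± 0.09, adjusted p = 2.52e-07). The static libraries of this gene lay between the sheared ones. Col4a3 had 1.85, 1.98 and 2.01 CPM at 2 dyn/cm2, against 8.99, 9.65 and 8.82 CPM at 30 dyn/cm2 (log2 difference -2.23 ± 0.14, adjusted p = 1.69e-16). Cldn2 had 27.4, 30.3 and 25.9 CPM at 2 dyn/cm2, against 8.27, 6.99 and 6.51 CPM at 30 dyn/cm2 (log2 difference 1.94 ± 0.10, adjusted p = 1.32e-19). At the higher shear both lay near their static values. Npr3 had 128, 135 and 142 CPM at 2 dyn/cm2, against 33.3, 33.1 and 32.6 CPM at 30 dyn/cm2 (log2 difference 2.03 ± 0.06, adjusted p = 7.95e-24), so that it was lower still at the higher shear. Of 34 interferon genes 27 were higher at 2 than at 30 dyn/cm2 and 0 lower, with a median of 0.96: Ifit3 had 12.8, 9.87 and 10.5 CPM in static cells, 11.9, 8.65 and 9.44 CPM at 2 dyn/cm2 and 0.839, 0.6103 and 0.937 CPM at 30 dyn/cm2 (log2 difference 3.64 ± 0.19, adjusted p = 3.2e-19). Csf1r, a receptor for a macrophage growth factor, had 46.5, 41.5 and 44.8 CPM in static cells, 39.9, 43.97 and 39.4 CPM at 2 dyn/cm2 and 10.1, 8.38 and 8.38 CPM at 30 dyn/cm2 (log2 difference 2.20 ± 0.08, adjusted p = 3.15e-24). For both, the low-shear libraries overlapped the static ones and lay above those at 30 dyn/cm2.

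**Figure D5:**
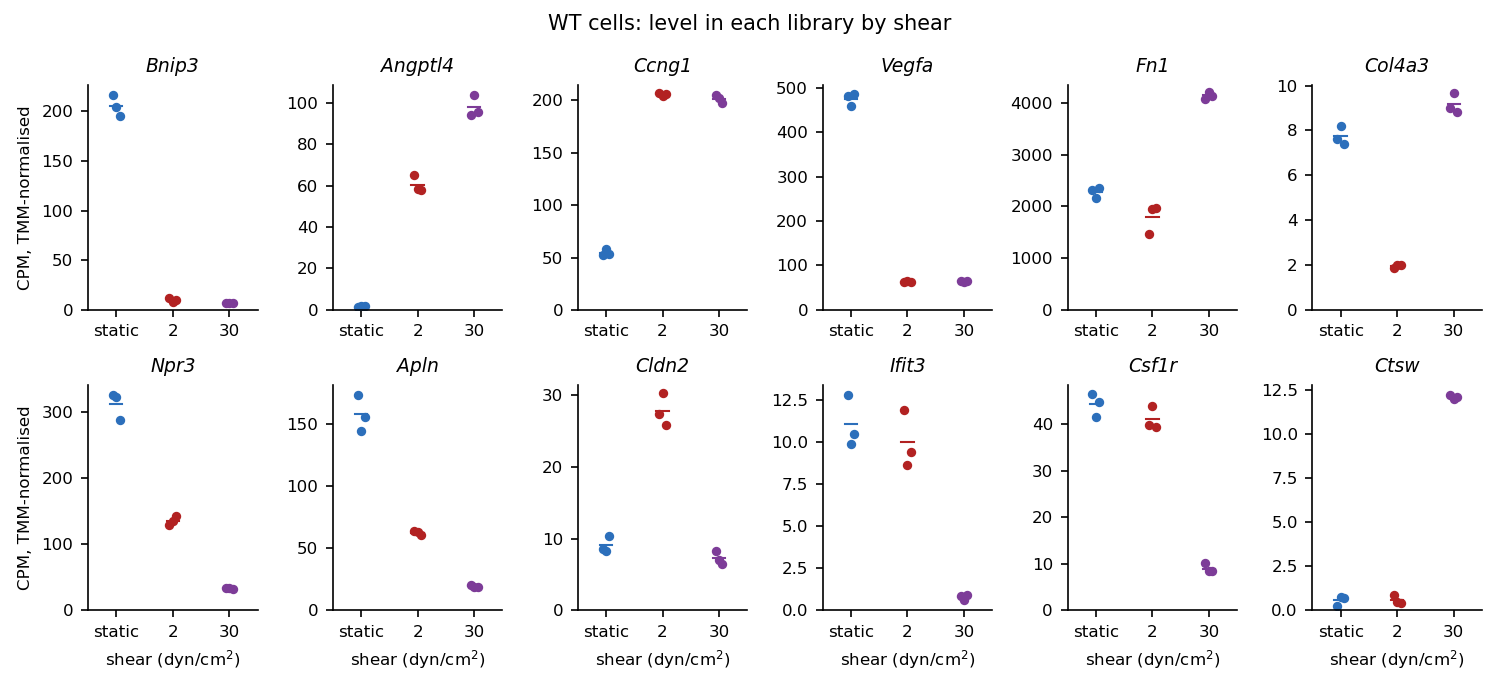
Level in each WT library (CPM, linear axis from 0) at 0 shear (static), 2 and 30 dyn/cm2 for 12 genes, with a line at each mean. Bnip3, Angptl4 and Ccng1 lie far from static at both shears, while Ifit3, Csf1r and Ctsw lie apart from static at 30 dyn/cm2 and overlap it at 2 dyn/cm2, and Cldn2 is high at 2 dyn/cm2.

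The response to low shear was then set against that of orpk cells by the difference of the log2 fold changes, WT minus orpk. Of all tested genes 3323 had a higher change in WT (25.4%) and 3541 a lower one (27.1%). Of 32 hypoxia genes 20 had a lower change in WT and 5 a higher one, with a median difference of -0.58. Vegfa averaged 63.9 ± 0.505 CPM in low-shear and 476 ± 14.2 CPM in static WT cells, against 98.2 ± 1.94 CPM in low-shear and 371 ± 11.2 CPM in static orpk cells (difference in log2 fold change -0.98 ± 0.05, adjusted p = 2.5e-19). Pdk1 averaged 31.5 ± 1.07 CPM in low-shear and 338 ± 10.8 CPM in static WT cells, against 65.7 ± 4.61 CPM in low-shear and 220.0 ± 13.7 CPM in static orpk cells (difference in log2 fold change -1.68 ± 0.07, adjusted p = 4.81e-23). Both fell in each genotype by their means, and further in WT cells. Sterol synthesis differed more evenly: 24 of 26 genes had a lower change in WT and 0 a higher one, with a median difference of -1.21. Lss averaged 123 ± 5.74 CPM in low-shear and 428 ± 7.85 CPM in static WT cells, against 133 ± 1.395 CPM in low-shear and 138 ± 4.51 CPM in static orpk cells (difference in log2 fold change -1.75 ± 0.05, adjusted p = 4.12e-27). Of 33 G1/S genes 27 had a lower change in WT and 3 a higher one, with a median difference of -1.22, and the helicase gene Mcm6 averaged 342 ± 15.3 CPM in low-shear and 431 ± 7.78 CPM in static WT cells, against 245 ± 13.9 CPM in low-shear and 99.2 ± 3.49 CPM in static orpk cells (difference in log2 fold change -1.64 ± 0.06, adjusted p = 1.45e-25). Of 15 ERK feedback genes 13 had a higher change in WT and 1 a lower one, and of 26 p53 targets 14 higher and 1 lower. Ccng1 averaged 206 ± 1.76 CPM in low-shear and 54.6 ± 3.11 CPM in static WT cells, against 165 ± 7.204 CPM in low-shear and 161 ± 8.12 CPM in static orpk cells (difference in log2 fold change 1.88 ± 0.06, adjusted p = 1.83e-26). The genotype and any other difference between the WT and orpk cultures cannot be told apart.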

How the data were processed

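Poly(A) RNA was sequenced from stranded libraries as single 50-nt reads, per the labels' protocols. Per the submitters' processing notes, CASAVA 1.8.2, STAR 2.4 and featureCounts 1.4.6 were used with GRCm38, and the values deposited by the authors are whole read counts per gene and library. Whether counting used the strand, and how reads with several matches were treated, is not given in the sources used here. Among 342 tested genes named here, the annotation places 153 over a second gene and 131 over one of opposite strand, so reads could be shared, and Gapdh, Pgk1, Eno1, Ftl1 and other genes with near-identical copies are uncertain. Coordinates and symbols are those of GENCODE M21 on GRCm38, and promoter sequences are RefSeq's on GRCm38.p6.

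The default filterByExpr filter over all 18 libraries was applied, and genes were scaled by TMM and fitted in edgeR 4.0.16 (R 4.3.3) by a robust quasi-likelihood model with 6 group means, which share 1 estimate of spread with 12 residual degrees of freedom. Each contrast had a quasi-likelihood F test, and p-values were adjusted by the Benjamini-Hochberg method with a threshold of 0.05. The steps were tested on simulated data. SE were taken as |log2 fold change| divided by √F, and SD are over 3 libraries. Genes at 0 reads in a group are given as bounds, with 3 reads put in place of 0. Genes at 1 to 3 reads are given as ratios with 95% exact intervals. Both cover counting error only. In list medians with genes at their bound, those at 3 reads or fewer in both groups count as unchanged.

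The comparison, the 54 lists, and the rule for naming genes were chosen with earlier results of these data known, so a list's direction is no independent evidence. A list is described by its counts and median beside those of all genes; no set test was made. Named were the 20 highest and 20 lowest genes of at least 5 CPM without overlap between libraries. Their separation thus follows from the rule. Also named were up to 8 members of each list by size of change and the 12 most abundant genes changed by over 1. A fixed set and 6 and 6 genes for each other contrast completed the rule. The text gives a selection. Many other list members, among them those that did not pass, were added after their values were seen. As alternatives, DESeq2 1.42.0 was run, TMM was replaced by RLE factors or by library totals, the filter was dropped, the fit was limited to the groups compared, replicate number was added as a block, and libraries were left out singly. The check by exon length was added after seeing the data.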

Additional observations from a re-analysis of the deposited data

Results flagged for a closer look

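Of the genes named for the difference between genotypes, 6 are given here because the test of the difference itself passed and each of the 4 groups held more than 3 reads. They were picked as extremes of that same difference, so its size is no independent evidence. Low-shear and static WT libraries were also required not to overlap, so their separation follows from the choice. The minimum of 5 CPM was a mean over the 4 groups. Spon2, Iffo1 and Tcp11l1 met it only through orpk cells and Aldoc only through WT cells. In the other genotype these genes lay at 3.85 CPM or below. Spon2, a secreted matrix protein, had 1.79, 1.86 and 1.36 CPM at 2 dyn/cm2, against 0.653, 0.2099 and 0.287 CPM in static cells; it had 13.4, 17.2 and 13.7 CPM in orpk cells at 2 dyn/cm2, against 42.3, 45.3 and 39.8 CPM in static orpk cells, a difference in log2 fold change of 3.62, or 4.21 without static WT replicate 1. Ccl5, a chemokine, had 16.6, 16.5 and 18.3 CPM at 2 dyn/cm2, against 7.64, 7.14 and 6.72 CPM in static cells; it had 5.75, 9.802 and 4.58 CPM in orpk cells at 2 dyn/cm2, against 28.3, 31.1 and 28.2 CPM in static orpk cells, a difference of 3.37. Both were higher at low shear than in static culture in WT cells and lower in orpk cells. Aldoc, an aldolase, had 13.6, 11.1 and 11.5 CPM at 2 dyn/cm2, against 264, 258 and 244 CPM in static cells; it had 0.794, 0.902 and 0.619 CPM in orpk cells at 2 dyn/cm2, against 0.642, 0.452 and 0.805 CPM in static orpk cells, a difference of -4.70. Car9, a carbonic anhydrase, had 0.272, 0.661 and 0.434 CPM at 2 dyn/cm2, against 14.3, 12.9 and 12.9 CPM in static cells; it had 7.41, 9.201 and 8.73 CPM in orpk cells at 2 dyn/cm2, against 13.4, 14.7 and 13.98 CPM in static orpk cells, a difference of -4.14. Aldoc thus lay below its low-shear WT level in every orpk library, while static Car9 libraries of both genotypes overlapped in range. Iffo1, an intermediate filament family protein, had 0.326, 0.1201 and 0.3798 CPM at 2 dyn/cm2, against 1.83, 2.66 and 2.24 CPM in static cells; it had 27.98, 30.01 and 26.2 CPM in orpk cells at 2 dyn/cm2, against 21.1, 19.8 and 17.3 CPM in static orpk cells, a difference of -3.49. Tcp11l1 had 0.109, 0.3004 and 0.271 CPM at 2 dyn/cm2, against 2.61, 3.85 and 3.22 CPM in static cells; it had 7.34, 7.52 and 8.11 CPM in orpk cells at 2 dyn/cm2, against 11.6, 11.8 and 9.74 CPM in static orpk cells, a difference of -3.26. The SE of these 6 differences ran from 0.22 to 0.39, and Iffo1 and Tcp11l1 overlap other annotated genes on the opposite strand.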

How the results depend on the processing

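Under every alternative run, the counts of rises and falls at 2 dyn/cm2 against static, and those of the other contrasts, stayed within 1.5 times their value. For 2 dyn/cm2 against static, RLE factors gave 3974 rises and 4183 falls, no filter 4300 and 3965, DESeq2 3617 and 3887, and the compared groups alone 3819 and 3800. Leaving out each of the 6 libraries in turn gave 3948 to 4109 rises and 3714 to 3844 falls. With replicate number as a block 8206 genes were called, against 8214 without it. The pairing by number has no source in the labels. Same-numbered libraries deviated with correlations of 0.00, -0.08 and 0.03, and differently numbered ones with -0.08 to 0.08. With 3 libraries a group, these values cannot show whether same-numbered libraries share a culture or a batch. With the block 6830 genes differed between genotypes and 4265 between 2 and 30 dyn/cm2, against 6864 and 4316. Of 1294 list counts under alternatives 58 moved by over 1.5 times, 20 of them with library totals as the scaling. Genes at 0 reads in a group were set to their bound, and those at 3 reads or fewer in both groups to no change. With this, 10 of 54 list medians shift by over 0.05, the most being 0.68 for the epithelial markers. Depth limits the genes under about 1 CPM, where a group holds a few reads. The labels do not say what the replicates are, and 1 low-shear library stands apart with lower levels of long genes, so small changes of long genes rest in part on that library.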

Other observations

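Transport, chaperone and lysosome genes changed in both directions at low shear, as did all tested genes, of which 32.6% rose and 30.3% fell. Of 26 solute carrier genes 8 rose and 10 fell: the inositol carrier Slc5a3 (-1.09) and the taurine carrier Slc6a6 (-0.77), both known from osmotic stress, fell with the neutral amino acid carriers Slc38a2 (-0.44) and Slc1a4 (-0.64), and the cationic amino acid carrier Slc7a1 (0.35) rose, each value being the log2 fold change at 2 dyn/cm2 over static. Of 15 heat shock genes 8 rose and 6 fell, or 9 and 2 with library totals as the scaling: Hsph1 had 297, 287 and 303 CPM at 2 dyn/cm2, against 173, 179.7 and 184 CPM in static cells (log2 fold change 0.73 ± 0.04, adjusted p = 4.61e-19), and its relative Hspa4l had 174, 180.2 and 183 CPM at 2 dyn/cm2, against 325, 262 and 302 CPM in static cells (log2 fold change -0.73 ± 0.10, adjusted p = 2.29e-05). These co-chaperones of HSP70 thus changed in opposite directions. Of 25 lysosome and autophagy genes 11 rose and 8 fell, or 15 and 1 with library totals, with Gla (0.45) among the rises and Atg9a (-0.56) among the falls.

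Lars2, a mitochondrial leucyl-tRNA synthetase, had 165.5, 336.9 and 728.5 CPM in replicates 1, 2 and 3 at 2 dyn/cm2, against 174.0, 144.6 and 148.5 CPM in static cells, the widest spread of the genes compared for replicate 1.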
